A study of Mus musculus with 3 samples.

Results

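Semaphorins, plexins and neuropilins are a ligand and receptor system first known from axon guidance. The set was taken by gene symbol and holds 31 of the 32285 genes in the count matrices, with 20 semaphorins, 9 plexins and 2 neuropilins. Their UMI counts (unique molecular identifiers, 1 for each captured transcript molecule) were compared between 3 classes of adipose stromal cells. The cells were CD31- CD45- cells sorted from the stromal vascular fraction of subcutaneous inguinal fat, the part of digested fat that remains once floating adipocytes are removed. They came from 3 wild-type C57BL/6J male mice aged 8 weeks, with 1 library for each mouse and no treatment, so the comparisons are between cells of the same animals and not between groups of mice.

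Class 3 semaphorins are secreted, whereas those of classes 4 to 7 sit in the membrane of the cell that makes them. Plexins are the signalling receptors, and their intracellular part acts on small GTPases. Most secreted semaphorins bind a neuropilin, which holds them to a plexin of the A or D type, and neuropilins also bind growth factors of the VEGF family. In fat the system is known for its part in vessel and nerve patterning.

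Cells were assigned by raw UMIs of 6 genes. A progenitor had at least 3 UMIs of Dpp4 and Pi16 together and at most 1 of Icam1 and Fabp4 together. A preadipocyte had at least 4 of Icam1 and Fabp4 together and at most 1 of Dpp4. A regulatory cell had at least 1 UMI of both Clec11a and Fmo2, at most 1 of Fabp4 and at most 1 of Dpp4. The gates use markers of the populations known as Dpp4+ adipocyte stem cells, Icam1+ preadipocytes and adipocyte regulatory cells. The classes are not the same as these populations, since the preadipocyte gate can be met by Fabp4 alone. Mice 1, 2 and 3 gave 7399, 3169 and 9273 progenitors, 2278, 1394 and 1889 preadipocytes, and 270, 384 and 404 regulatory cells. The kept cells held between 78108414 and 99328725 UMIs per mouse. Regulatory cells were the shallowest class, with median UMIs per cell of 4945, 10104.5 and 4575, against 7329, 12052 and 6690 in progenitors and 8083, 12977 and 7296 in preadipocytes. Any pair of libraries shared between 52 and 81 cell barcodes.

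The classes were checked against marker genes that the gates had not used. The summed level of 6 progenitor markers, among them Cd55 and Wnt2, averaged 4726 CPM (counts scaled to the summed UMIs of the class, per mega-UMI) in progenitors, 1049 in preadipocytes and 1291 in regulatory cells. The corresponding sums of 6 preadipocyte markers, among them Pparg and Lpl, were 478, 3898 and 1308 CPM. Those of 6 regulatory markers, among them F3 and Gdf10, were 249, 865 and 2931 CPM. Each sum was highest in its own class, and of the single genes only Apoc1, of the preadipocyte list, was higher in regulatory cells than in its own class.

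Of the class 3 genes, 4 lie in 1 stretch of chromosome 5 in the GRCm38 build. From the lower end they are Sema3d (chr5:12383385-12588948), Sema3a (chr5:13125414-13602565), Sema3e (chr5:14025276-14256689) and Sema3c (chr5:17574281-17730268), all on the plus strand. Sema3d, Sema3e and Sema3c were the genes of the set with the largest progenitor levels relative to preadipocytes among those described by mouse, while Sema3a lay among them and had a different pattern. The 250 bases before the RefSeq start of each gene (GRCm38.p6) are therefore shown, with the same stretch of Plxnd1, the plexin that was furthest above its progenitor level in preadipocytes. Capitals mark matches to 6 motifs searched on both strands, namely the TATA box (TATAAA), the CCAAT box (CCAAT), the GC box (GGGCGG), the E-box (CACGTG), the AP-1 site (TGANTCA) and the nuclear receptor half-site (AGGTCA).
Sema3d, chr5:12382916-12383165, plus strand: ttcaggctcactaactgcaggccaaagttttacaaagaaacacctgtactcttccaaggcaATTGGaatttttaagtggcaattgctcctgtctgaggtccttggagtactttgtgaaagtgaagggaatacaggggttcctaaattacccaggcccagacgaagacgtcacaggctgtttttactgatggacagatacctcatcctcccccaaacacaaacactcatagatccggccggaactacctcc
Sema3a, chr5:13396534-13396783, plus strand: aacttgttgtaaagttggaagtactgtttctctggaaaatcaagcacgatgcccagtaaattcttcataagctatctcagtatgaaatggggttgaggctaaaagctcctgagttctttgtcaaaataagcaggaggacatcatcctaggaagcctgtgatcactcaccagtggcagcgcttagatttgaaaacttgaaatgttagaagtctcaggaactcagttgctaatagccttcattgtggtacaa
Sema3e, chr5:14025026-14025275, plus strand: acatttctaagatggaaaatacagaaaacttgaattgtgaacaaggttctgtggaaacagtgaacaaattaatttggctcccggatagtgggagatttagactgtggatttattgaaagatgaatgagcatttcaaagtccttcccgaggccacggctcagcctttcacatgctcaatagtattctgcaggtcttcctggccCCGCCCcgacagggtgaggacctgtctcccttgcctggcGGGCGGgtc
Sema3c, chr5:17574566-17574815, plus strand: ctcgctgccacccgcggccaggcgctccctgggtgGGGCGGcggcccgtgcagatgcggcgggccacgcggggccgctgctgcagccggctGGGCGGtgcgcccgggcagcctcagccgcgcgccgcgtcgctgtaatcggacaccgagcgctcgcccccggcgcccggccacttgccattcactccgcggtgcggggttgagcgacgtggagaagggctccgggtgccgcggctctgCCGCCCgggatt
Plxnd1, chr6:115995006-115995255, minus strand: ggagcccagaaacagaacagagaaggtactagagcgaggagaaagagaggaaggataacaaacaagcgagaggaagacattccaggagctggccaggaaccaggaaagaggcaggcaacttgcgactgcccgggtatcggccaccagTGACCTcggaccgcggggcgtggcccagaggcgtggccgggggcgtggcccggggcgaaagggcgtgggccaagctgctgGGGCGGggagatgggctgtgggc
The 3 genes did not share a promoter type. The Sema3c stretch held 39 CpG dinucleotides and 3 GC boxes, and 98.4% of the 32851 promoters in the table held fewer CpGs. The stretches of Sema3d, Sema3e and Sema3a held 4, 7 and 2 CpGs, against a median of 6 over all promoters. Sema3d held 1 CCAAT box and Sema3e held 2 GC boxes, while none of the 6 motifs was found before Sema3a. The Plxnd1 stretch held 16 CpGs, 1 GC box and 1 nuclear receptor half-site. A CCAAT box was present in 33.9% of all promoter stretches, a GC box in 32.7%, a nuclear receptor half-site in 14.0%, a TATA box in 12.4%, an AP-1 site in 6.75% and an E-box in 6.02%. The stretches of Sema3a and Sema3c lie inside their genes as GENCODE draws them. The libraries count tags near the far end of transcripts, so the start in use was not measured, and a match is not evidence of binding.

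The first comparison asked how the set differs between preadipocytes and progenitors. Preadipocytes carried far less secreted semaphorin RNA than progenitors and more RNA of the receptors Plxnd1 and Nrp1. Of the 24 members with enough counts to be tested, 11 were higher and 8 lower in preadipocytes at an adjusted p under 0.05, and 5 did not pass. All 19 differences had the same sign in 3 of 3 mice. With the mouse as a block, the p-values rest on how much the class differences vary between these mice. For each gene this spread was estimated from the sums of all 3 classes and drawn toward that of other genes. The p-values do not measure the spread of the levels themselves between mice. Among all 13258 genes tested, 27.2% were called higher and 29.2% lower, against 45.8% and 33.3% of the members, so the share called lower was near that of all genes. The median log2 fold change was 0.24 over the members and 0.0043 over all genes. Fewer cells making a gene and less RNA per cell cannot be told apart in summed counts, and shares of cells are given below.

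The ligands came first. Sema3c, a secreted ligand of both neuropilins known from heart and vessel development, stood at 664, 425 and 805 CPM in the progenitors of mice 1, 2 and 3. In preadipocytes it stood at 36.4, 20.02 and 57.8 CPM, and in regulatory cells at 124, 64.6 and 108 CPM. The 3 classes did not overlap, and mouse 2, with the most UMIs per cell, was the lowest of the 3 mice in each class. The fitted log2 fold change of preadipocytes over progenitors was -4.17 ± 0.13 (SE, adjusted p = 1.53e-10), which is 18.0-fold lower.

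Sema3e binds Plxnd1 directly, without a neuropilin. Its progenitor levels were 99.3, 70.9 and 108 CPM, against 1.90, 0.820 and 2.87 CPM in preadipocytes. Every progenitor value was thus far above every preadipocyte value, and the log2 fold change was -5.75 ± 0.14 (adjusted p = 3.85e-11). Sema3d, a neuropilin ligand, measured 68.1, 43.5 and 78.9 CPM in progenitors and 0.978, 0.984 and 2.87 CPM in preadipocytes. Its log2 fold change was -5.44 ± 0.18 (adjusted p = 2.24e-10). Sema3b (chr9:107597674-107609229, minus strand) measured 71.2, 88.1 and 78.1 CPM in progenitors and 9.40, 13.0 and 12.5 CPM in preadipocytes. It fell by 2.83 ± 0.08 on the log2 scale (adjusted p = 5.81e-11), with mouse 2 here the highest in both classes.

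The low preadipocyte levels of these ligands were set beside progenitor markers, since free RNA in droplets can give UMIs to cells that do not make a gene. As a percentage of the progenitor level of the same mouse, Sema3c was at 4.71% to 7.18% in preadipocytes, Sema3d at 1.44% to 3.64%, Sema3e at 1.16% to 2.65% and Sema3b at 13.2% to 16.0%. The progenitor markers Cd55, Anxa3, Wnt2 and Dact2 were at 10.9% to 13.7%, 4.21% to 7.32%, 8.14% to 11.0% and 2.74% to 4.80%, and the other markers of that list, Cd248 and Ly6c1, at 33.9% to 48.1% and 33.4% to 36.5%. The part of free RNA in the remaining levels was not tested.

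Sema3a, which signals through Nrp1 and A-type plexins, did not follow its neighbours. It measured 16.5, 10.3 and 18.1 CPM in progenitors and 16.6, 7.17 and 16.3 CPM in preadipocytes. These ranges overlapped, and the log2 fold change of -0.26 ± 0.14 did not pass (adjusted p = 0.128), although it did without mouse 1 (-0.35, adjusted p = 0.0394). Sema3f, a ligand of Nrp2 that lies close to Sema3b on chromosome 9 (chr9:107681500-107710475, minus strand), was near the limit of detection in both classes, with 28 UMIs in all progenitors and 29 in all preadipocytes. Its call of 1.64 ± 0.46 (adjusted p = 0.00881) was lost without mouse 3 (adjusted p = 0.0501) and when cells with a UMI of another cell type's marker were left out (1.18, adjusted p = 0.185).

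**Figure D1:**
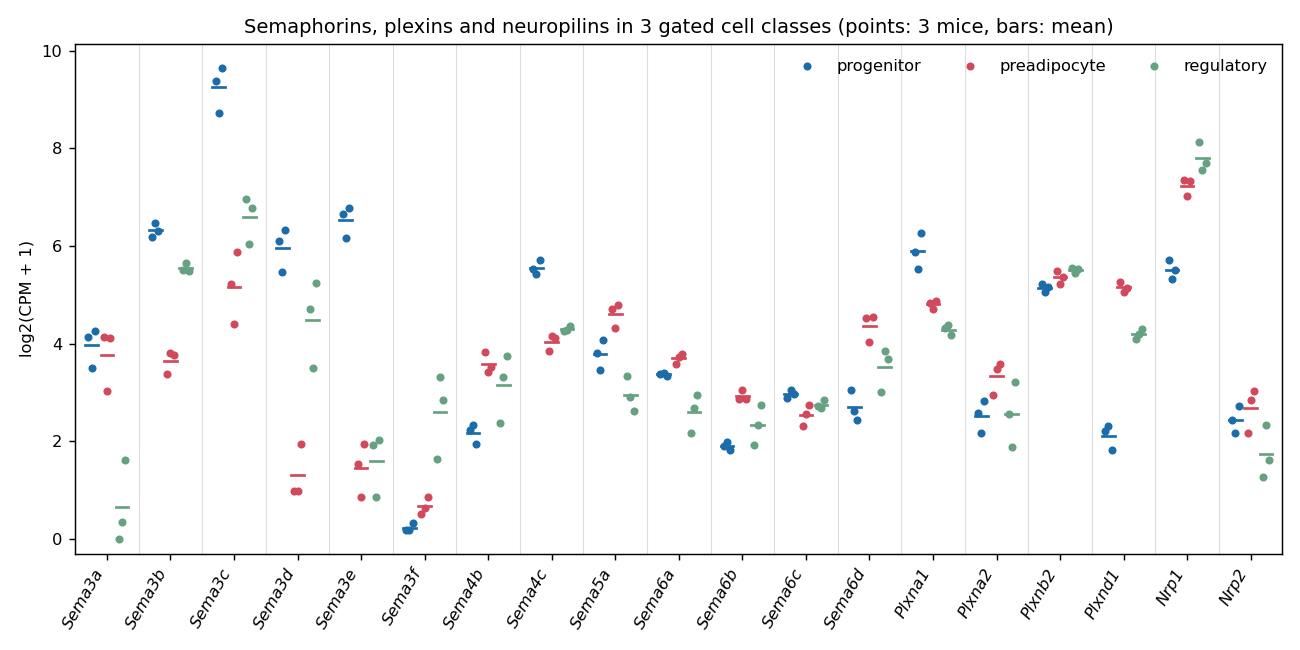
Level of the 19 members that reached a mean of 5 CPM in at least 1 class, on a log2(CPM + 1) axis, with 1 point per mouse and a bar at the mean of the logs, for progenitors (blue), preadipocytes (red) and regulatory cells (green). The blue points of Sema3c, Sema3d and Sema3e lie well above the red ones, while Plxnd1 and Nrp1 have the opposite order.

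Membrane semaphorins moved in both directions. Sema4c, a ligand of Plxnb2, measured 45.4, 41.8 and 51.1 CPM in progenitors and 13.4, 16.7 and 16.3 CPM in preadipocytes, and fell by 1.63 ± 0.08 on the log2 scale (adjusted p = 8.28e-09). Sema6c was lower by a smaller amount, from 6.42, 7.33 and 6.80 CPM to 3.97, 4.92 and 5.75 CPM (-0.56 ± 0.13, adjusted p = 0.00263). Sema4d, the ligand of Plxnb1 also known as CD100, was also called lower, with 488 UMIs in progenitors and 6 in preadipocytes over the 3 mice. These are raw counts, and the progenitor sums held more UMIs in each mouse. The log2 fold change was -4.69 ± 0.39 (adjusted p = 5.78e-07).

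Of the 11 members that rose in preadipocytes, 5 were semaphorins of classes 4 to 6 and 5 were receptors. Sema6d, a ligand of Plxna1, rose from 7.33, 5.19 and 4.44 CPM to 21.9, 15.5 and 22.5 CPM (1.77 ± 0.18, adjusted p = 3.48e-06). Sema4b rose from 3.72, 4.04 and 2.87 CPM to 13.1, 9.74 and 10.5 CPM (1.61 ± 0.18, adjusted p = 9.70e-06). For both genes the classes did not overlap. Sema6b rose from 2.75, 2.95 and 2.53 CPM to 6.30, 7.33 and 6.34 CPM (1.22 ± 0.14, adjusted p = 1.25e-05). Sema5a, which carries thrombospondin repeats outside the cell, rose from 13.0, 10.0 and 15.9 CPM to 25.3, 18.9 and 26.9 CPM (0.82 ± 0.10, adjusted p = 2.88e-05). Sema6a, a ligand of Plxna2 and Plxna4, was at 9.37, 9.54 and 9.09 CPM in progenitors and 11.0, 12.2 and 12.7 CPM in preadipocytes. Its call (0.30 ± 0.11, adjusted p = 0.0380) did not hold without mouse 2 or without mouse 3 (adjusted p = 0.0941 and 0.149) or without the block for the mouse (adjusted p = 0.210). Cells bearing a marker of another type, when left out, took the call with them (0.19, adjusted p = 0.190).

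Because of these opposite movements the secreted and the membrane ligands differed in sum. The 7 class 3 genes together measured 919, 638 and 1089 CPM in progenitors and 69.0, 42.9 and 93.7 CPM in preadipocytes. The 13 genes of classes 4 to 7 together measured 92.1, 86.0 and 98.1 CPM in progenitors and 97.8, 89.2 and 103 CPM in preadipocytes. These ranges overlapped, although within each mouse the preadipocyte sum was slightly higher. The sums were not tested. Without Sema3c the other 19 semaphorins summed to 348, 299 and 382 CPM in progenitors against 130, 112 and 139 CPM in preadipocytes.

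Among the receptors, Plxnd1 (chr6:115954811-115995005, minus strand), the receptor of Sema3e and best known from vessels, measured 3.63, 3.99 and 2.53 CPM in progenitors and 37.2, 32.4 and 34.5 CPM in preadipocytes. It was higher by 3.33 ± 0.13 on the log2 scale (adjusted p = 6.26e-10), a 10.0-fold difference. Sema3e and its receptor thus had opposite orders in the classes. Plxna1 (chr6:89316314-89362620, minus strand), a partner of neuropilins, went with the ligands. It measured 58.1, 44.9 and 76.1 CPM in progenitors against 27.6, 25.0 and 28.4 CPM in preadipocytes (-1.17 ± 0.11, adjusted p = 1.33e-06). Plxna2 was at 4.98, 3.49 and 6.11 CPM in progenitors and 6.74, 10.2 and 11.1 CPM in preadipocytes (0.89 ± 0.19, adjusted p = 0.00172).

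Plxnb2, the receptor of Sema4c, differed little between the classes. It stood at 36.1, 32.4 and 35.0 CPM in progenitors and at 43.7, 36.5 and 40.3 CPM in preadipocytes, and its call of 0.16 ± 0.06 (adjusted p = 0.0265) was lost when any 1 mouse was left out (adjusted p between 0.0609 and 0.0940) and without the block for the mouse (adjusted p = 0.321). Plxnc1, the receptor of Sema7a, was called higher at low counts, with 24 raw UMIs in progenitors and 61 in preadipocytes (2.95 ± 0.49, adjusted p = 2.63e-04).

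Nrp1 (chr8:128358604-128503363, plus strand), the neuropilin that binds Sema3a and VEGF-A, measured 51.4, 39.1 and 44.8 CPM in progenitors and 162, 129 and 160 CPM in preadipocytes. The classes did not overlap and the log2 fold change was 1.68 ± 0.08 (adjusted p = 2.61e-09). Nrp2, the neuropilin of Sema3f, was at 4.39, 3.49 and 5.61 CPM in progenitors and 3.48, 6.24 and 7.22 CPM in preadipocytes, which overlapped (0.24 ± 0.20, adjusted p = 0.341). Its difference depended on single mice, being 0.55 without mouse 1 (adjusted p = 0.0254) and -0.0089 without mouse 2 (adjusted p = 0.978).

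Plxnd1 and Nrp1 are also genes of endothelial and mural cells. The markers of these cells were higher in preadipocytes in sum, although Des, of the mural list, was lower (-0.82 ± 0.18, adjusted p = 0.00202). The summed level of 6 endothelial markers was 29.6, 53.3 and 3.83 CPM in preadipocytes and at most 1.12 CPM in progenitors, with none of the 6 at 0 in either class. That of 6 mural markers was 35.3 to 50.4 CPM against 9.72 to 13.1 CPM. When cells with any UMI of a short list of other cell types' markers were left out, the log2 fold changes were 3.32 for Plxnd1 and 1.67 for Nrp1. The part of such cells in what remains was not tested.

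**Figure D2:**
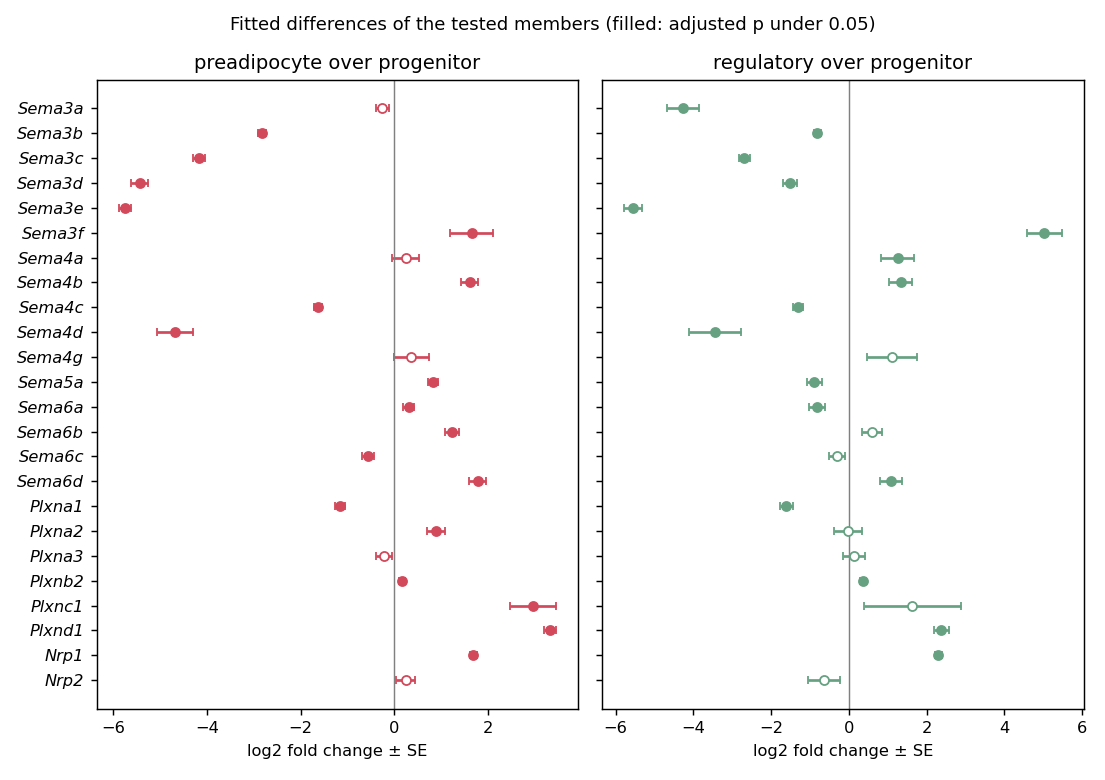
Fitted log2 fold change ± SE of the 24 tested members, in preadipocytes over progenitors (left) and in regulatory cells over progenitors (right), with filled points where the adjusted p is under 0.05. The left panel runs from -5.75 for Sema3e to 3.33 for Plxnd1, and the right panel from -5.56 for Sema3e to 5.03 for Sema3f.

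The second comparison set regulatory cells against the other classes. These cells had a pattern of their own, with intermediate Sema3c, Sema3d and Sema3b, almost no Sema3a, the highest Sema3f and the highest Nrp1. Sema3e was almost absent, as it was in preadipocytes. Against progenitors, 7 members were called higher and 10 lower, against 18.9% and 24.0% of all genes tested, and the median log2 fold change was -0.16 over the members and -0.05 over all genes. Against preadipocytes, 5 were called higher and 4 lower, where 12.3% and 13.4% of all genes were called. The comparisons share the same regulatory sums, so their counts are not independent of each other. Each call had its sign in 3 of 3 mice except that of Sema6d over progenitors, which had it in 2 of 3.

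Sema3d separated regulatory cells from preadipocytes most widely among the ligands that are high in progenitors. It measured 25.3, 10.3 and 36.7 CPM in regulatory cells, above every preadipocyte value and below every progenitor value. The log2 fold change was 3.92 ± 0.30 over preadipocytes (adjusted p = 1.37e-06) and -1.51 ± 0.18 over progenitors (adjusted p = 2.93e-05). Sema3b was at 44.2, 49.0 and 43.9 CPM, and also lay between the other classes (2.01 ± 0.11 over preadipocytes, adjusted p = 8.95e-08, and -0.82 ± 0.09 over progenitors, adjusted p = 1.33e-05). For Sema3c the log2 fold changes were 1.48 ± 0.15 over preadipocytes (adjusted p = 1.34e-05) and -2.69 ± 0.14 over progenitors (adjusted p = 1.94e-08).

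Sema3e did not share this order. It was at 2.81, 0.811 and 3.10 CPM in regulatory cells, a range that overlapped that of preadipocytes (0.19 ± 0.48, adjusted p = 0.823) and lay far below progenitors (-5.56 ± 0.23, adjusted p = 3.63e-09). Sema3a was low in regulatory cells alone of the classes compared, with 0, 1 and 4 UMIs in mice 1, 2 and 3, or 0, 0.270 and 2.07 CPM. It was lower than in progenitors by 4.26 ± 0.41 on the log2 scale (adjusted p = 4.66e-06) and lower than in preadipocytes by 4.00 ± 0.43 (adjusted p = 2.63e-05).

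Sema3f had the reverse pattern of Sema3a. It reached 2.11, 8.93 and 6.20 CPM in regulatory cells, from 3, 33 and 12 UMIs, and was at most 0.259 CPM in progenitors and 0.811 CPM in preadipocytes. The log2 fold change was 5.03 ± 0.45 over progenitors (adjusted p = 2.27e-06) and 3.39 ± 0.43 over preadipocytes (adjusted p = 1.07e-04). Sema3b and Sema3f thus had opposite orders between progenitors and regulatory cells.

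Nrp1 rose further in regulatory cells, to 280, 187 and 208 CPM. This was above both other classes, with log2 fold changes of 2.30 ± 0.08 over progenitors (adjusted p = 1.32e-09) and 0.62 ± 0.08 over preadipocytes (adjusted p = 1.33e-04). Plxnd1 was at 16.2, 17.3 and 18.6 CPM, between the other classes (2.38 ± 0.20 over progenitors, adjusted p = 1.37e-06, and -0.95 ± 0.17 over preadipocytes, adjusted p = 0.00134). Plxna1 was at 19.0, 19.7 and 17.1 CPM, lower than in progenitors (-1.61 ± 0.17, adjusted p = 9.23e-06), while its difference from preadipocytes did not pass (-0.44 ± 0.19, adjusted p = 0.108). Plxnb2 was at 45.6, 42.5 and 45.5 CPM (0.37 ± 0.08 over progenitors, adjusted p = 0.00224, and 0.21 ± 0.08 over preadipocytes, adjusted p = 0.0785). Its call over progenitors was lost with cells thinned to 3000 UMIs (adjusted p = 0.146).

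Of the membrane semaphorins, Sema5a and Sema6a were lowest in regulatory cells. Sema5a was at 9.13, 6.49 and 5.17 CPM there, lower than in preadipocytes by 1.70 ± 0.19 (adjusted p = 3.94e-05). Sema6a was at 3.51, 5.41 and 6.72 CPM, lower than in preadipocytes by 1.12 ± 0.20 (adjusted p = 0.00155). Against progenitors both were also called lower (-0.89 ± 0.20, adjusted p = 0.00369, for Sema5a and -0.82 ± 0.20, adjusted p = 0.00640, for Sema6a), but the first call was lost without mouse 3 (adjusted p = 0.0528) and the second without mouse 2 (adjusted p = 0.0829). With cells thinned to 3000 UMIs both calls against progenitors were lost, and so was that of Sema6a against preadipocytes (adjusted p = 0.0597).

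Sema4c was at 18.2, 18.4 and 19.6 CPM, lower than in progenitors by 1.31 ± 0.13 (adjusted p = 5.38e-06) and not distinguished from preadipocytes (0.32 ± 0.15, adjusted p = 0.142). Sema6d was at 7.02, 13.5 and 11.9 CPM and Sema4b at 4.21, 8.93 and 12.4 CPM. Their calls over progenitors (1.09 ± 0.28, adjusted p = 0.00724, and 1.34 ± 0.30, adjusted p = 0.00302) rested on single mice, since the first was lost without mouse 2 (adjusted p = 0.162) and the second without mouse 3 (adjusted p = 0.0581). Neither differed from preadipocytes at the threshold (-0.68 ± 0.26, adjusted p = 0.0730, for Sema6d and -0.27 ± 0.27, adjusted p = 0.538, for Sema4b). The Sema6d call over progenitors was also lost with cells thinned to 3000 UMIs.

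Sema6b was at 2.81, 4.06 and 5.68 CPM and Sema6c at 5.62, 5.41 and 6.20 CPM in regulatory cells, and neither passed against progenitors (adjusted p = 0.0911 and 0.280) or preadipocytes (adjusted p = 0.0876 and 0.505). Plxna2 was at 4.92, 2.71 and 8.27 CPM and Nrp2 at 1.40, 4.06 and 2.07 CPM, from 33 and 21 UMIs in all. Neither passed against progenitors (-0.02 ± 0.36 and -0.64 ± 0.41) or against preadipocytes (-0.91 ± 0.35 and -0.88 ± 0.41), where Plxna2 passed without mouse 1 (-1.10, adjusted p = 0.0329). The 12 members that stayed under a mean of 5 CPM in each class were Plxna3, Plxna4, Plxnb1, Plxnb3, Plxnc1, Sema3g, Sema4a, Sema4d, Sema4f, Sema4g, Sema5b and Sema7a, with class means between 0 and 3.14 CPM. Of these, 7 did not pass the filter on low counts and were not tested, and the 2 others that regulatory cells separated from progenitors were Sema4a, called higher from 20 UMIs in regulatory cells and lost without any 1 mouse, and Sema4d, called lower from 2 UMIs.

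Other cell types were also not evenly spread over regulatory cells. The summed level of 6 leukocyte markers was 21.1, 0.270 and 0 CPM in mice 1, 2 and 3 and that of 6 mesothelial markers was 0, 2.43 and 66.1 CPM. With cells bearing a marker of another type left out, the log2 fold changes over progenitors were 5.35 for Sema3f and 2.31 for Nrp1. That filter used a short list that leaves out most genes of these sums, so leukocytes and mesothelial cells can remain. Their part in what remains was not tested.

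The share of cells with a UMI was compared at equal depth, after each cell had been thinned to 3000 UMIs and shallower cells were left out. This kept 18405 progenitors, 5400 preadipocytes and 846 regulatory cells. Sema3c was detected in 77.1% ± 9.86 (SD, n = 3 mice) of progenitors, 8.97% ± 3.87 of preadipocytes and 21.6% ± 2.99 of regulatory cells. Sema3e was detected in 22.3% ± 3.51 of progenitors, and in 0.565% ± 0.244 of preadipocytes and 0.545% ± 0.492 of regulatory cells. Nrp1 was detected in 11.8% ± 1.60 of progenitors, 33.3% ± 3.88 of preadipocytes and 40.8% ± 0.949 of regulatory cells. Without thinning, the shares for Nrp1 were 27.1% ± 4.32, 65.5% ± 7.80 and 61.4% ± 8.25, so that the order of the last 2 classes was the opposite of that at equal depth. Unthinned, Sema3c was detected in 93.9% ± 1.03, 20.5% ± 3.69 and 37.6% ± 2.75 of cells and Sema3e in 43.1% ± 2.25, 1.25% ± 0.368 and 1.25% ± 0.405.

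**Figure D3:**
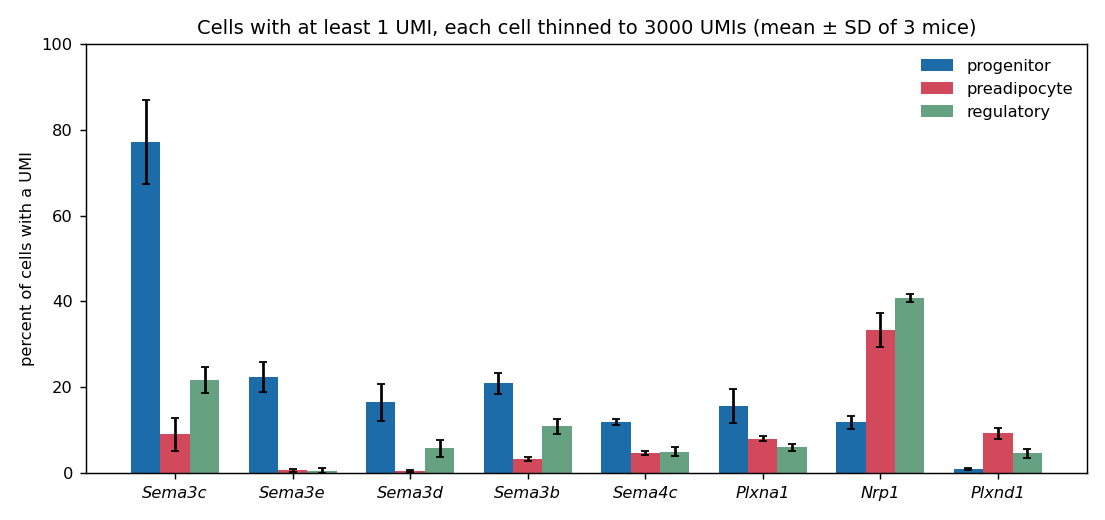
Percentage of cells with at least 1 UMI of 8 members after each cell was thinned to 3000 UMIs, as the mean of 3 mice with the SD as error bar, for each class. Sema3c was found in 77.1% of progenitors and 8.97% of preadipocytes, while Nrp1 and Plxnd1 were found in a smaller share of progenitors than of either other class.

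The neighbourhood on chromosome 5 was then read gene by gene. The stretch from the lower end of Sema3d to the upper end of Gnai1, an interval chosen after values were seen, spans 5.98 Mb and holds 24 coding genes, of which 8 had enough counts to be tested. Sema3d, Sema3e and Sema3c were lower in preadipocytes than in progenitors, while 4 others were higher. Cd36, the fatty acid transporter that is the next coding gene above Sema3c (chr5:17781690-17888801, minus strand), rose from a mean of 2.74 to 163 CPM (5.89 ± 0.18, adjusted p = 1.24e-10). Hgf, which encodes hepatocyte growth factor, rose by 2.81 ± 0.25 (adjusted p = 1.39e-06), Gnai1 by 1.74 ± 0.14 (adjusted p = 3.38e-07) and the calcium channel subunit gene Cacna2d1 by 1.50 ± 0.06 (adjusted p = 1.02e-09). Sema3c and its neighbour Cd36 therefore differed in opposite directions between the classes. Cd36 is also in the list of preadipocyte markers used to check the classes, so its rise is not a separate observation about this stretch. In regulatory cells Cd36 was at a mean of 8.91 CPM and Gnai1 at 90.9 CPM, which was above progenitors by 3.47 ± 0.16 on the log2 scale (adjusted p = 8.42e-09).

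**Figure D4:**
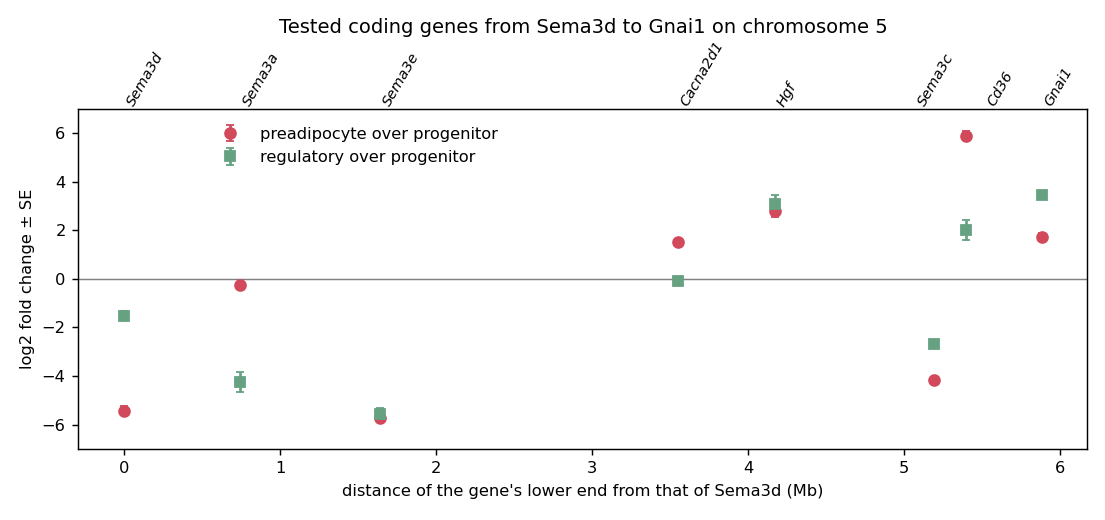
Log2 fold change ± SE of the 8 tested coding genes between Sema3d and Gnai1, plotted at the distance of each gene's lower end from that of Sema3d in Mb, for preadipocytes (red circles) and regulatory cells (green squares) over progenitors. Sema3d, Sema3e, Sema3c and Sema3a lie under 0 in both, with Sema3a at -0.26 in preadipocytes, where it was not called, and at -4.26 in regulatory cells. Cd36, at 5.40 Mb, reaches 5.89 in preadipocytes.

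The study separates Icam1+ preadipocytes by clustering and by sorting on ICAM1 and CD44 protein at the cell surface. The preadipocyte gate used here can be met by Fabp4 alone, so its cells are not the same population. These preadipocytes were split by their Cd44 UMIs, which count RNA and not surface protein. Cells with at least 2 UMIs numbered 294, 312 and 324, and cells with 0 UMIs numbered 1557, 756 and 1157. Of 18 members tested, Sema3c and Sema4c were called higher in the cells with Cd44, which is 11.1% of the members, where 12.2% of all 11280 genes tested were called higher and 5.86% lower. No member was called lower by edgeR (0 at an unadjusted p under 0.05) or by DESeq2, which called Sema3c but not Sema4c (adjusted p = 0.0718). With library size in place of TMM, the split of all genes called changed from 1376 higher and 661 lower to 918 higher and 1255 lower, and both members were still called higher.

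Sema3c measured 54.2, 25.4 and 78.4 CPM in cells with at least 2 Cd44 UMIs and 30.8, 17.8 and 52.1 CPM in cells with none. The ranges overlapped between mice, but within each mouse the cells with Cd44 were higher (0.74 ± 0.09, adjusted p = 1.91e-04). Sema4c measured 18.9, 21.7 and 21.4 CPM against 12.7, 14.4 and 14.7 CPM (0.67 ± 0.13, adjusted p = 0.00350). Both genes are higher in progenitors than in preadipocytes, and so were the 6 progenitor markers in sum, at 1285, 1161 and 1160 CPM in cells with Cd44 against 1078, 957 and 936 CPM. The part of progenitor RNA in the difference was not tested. Cells with Cd44 were also deeper, with median UMIs of 8861.5, 13729 and 7578.5 against 7863, 12606.5 and 7118. Without the block for the mouse neither gene was called (adjusted p = 0.624 and 0.211), and after thinning to 3000 UMIs, which left 134 cells with at least 2 Cd44 UMIs, the log2 fold changes were 0.14 and -0.52 with no call.

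No plexin or neuropilin was called in the Cd44 split with the main settings. The 16 other members had log2 fold changes between -0.27 and 0.70. Nrp2 was at 4.45, 7.82 and 11.7 CPM against 3.64, 5.80 and 5.97 CPM, higher in 3 of 3 mice, and missed the threshold (0.69 ± 0.22, adjusted p = 0.0533). It passed without mouse 1 (adjusted p = 0.0249) and without cells bearing markers of other types (1.07, adjusted p = 0.00624). With no low-count filter it passed as well. The summed endothelial markers were at 41.0, 83.4 and 5.72 CPM in cells without Cd44 and at 1.11, 1.95 and 0 CPM in cells with it.

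**Figure D5:**
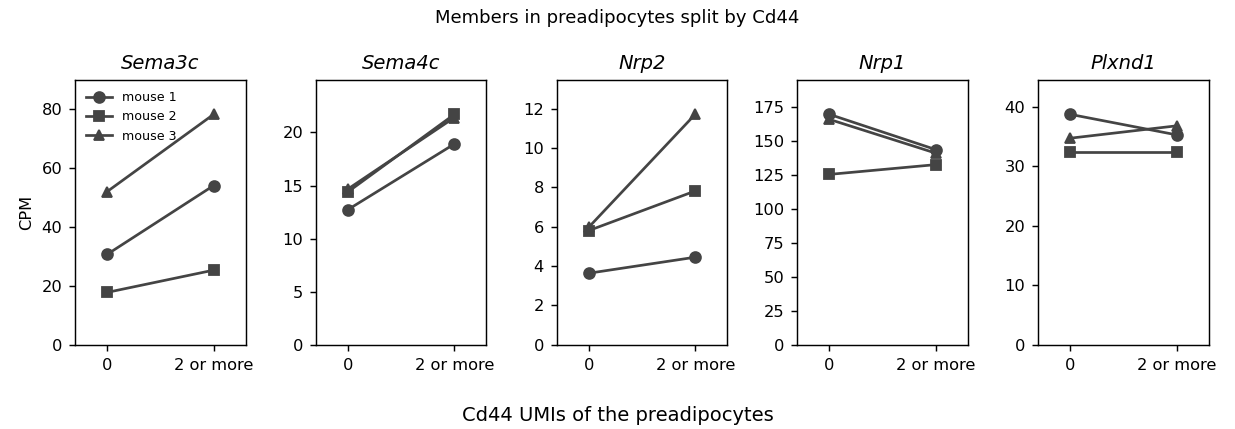
Level in CPM of 5 members in preadipocytes with 0 and with at least 2 Cd44 UMIs, with 1 line per mouse. The lines of Sema3c and Sema4c rise in each of 3 mice, while those of Nrp1 and Plxnd1 have no common direction.

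The wider pathway was read from 4 lists. Of the 12 co-receptors and alternative receptors of semaphorins, 8 were tested, and 2 were higher and 2 lower in preadipocytes than in progenitors, which is 25.0% each way and near the 27.2% and 29.2% of all genes. Nrcam, an adhesion molecule that partners Nrp2, measured 37.7, 34.9 and 37.7 CPM in progenitors and 6.19, 4.70 and 6.34 CPM in preadipocytes (-2.74 ± 0.10, adjusted p = 3.20e-10), and 17.5, 10.8 and 12.4 CPM in regulatory cells. Of the 5 VEGF-family ligands in the files, 3 were lower in preadipocytes, where 29.2% of all genes were, and the other 2 did not pass. Pgf, placental growth factor, fell from 23.1, 24.3 and 25.9 CPM to 2.01, 0.547 and 2.14 CPM (-4.06 ± 0.27, adjusted p = 8.61e-08), and Vegfd from 159, 165 and 112 CPM to 74.1, 72.3 and 56.1 CPM (-1.15 ± 0.08, adjusted p = 1.19e-07). Vegfc was highest in regulatory cells, at 21.8, 25.2 and 17.1 CPM against 4.37, 5.79 and 3.98 CPM in progenitors (2.14 ± 0.19, adjusted p = 2.21e-06).

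Of 24 tested genes that act below plexins, 4 were higher and 14 lower in preadipocytes, and 3 were higher and 13 lower in regulatory cells, both against progenitors. Of all genes tested, 27.2% were called higher and 29.2% lower in preadipocytes, and 18.9% and 24.0% in regulatory cells. Rras2, of the small GTPase family that plexins inactivate, fell from 36.2, 28.6 and 44.9 CPM to 7.82, 6.56 and 7.81 CPM (-2.34 ± 0.11, adjusted p = 2.75e-09). Fyn, a kinase linked to A-type plexins, fell from 283, 246 and 306 CPM to 87.5, 65.3 and 87.5 CPM (-1.85 ± 0.07, adjusted p = 4.77e-10). Gipc1, which binds the intracellular end of Nrp1, rose from 7.46, 8.47 and 5.99 CPM to 19.0, 16.6 and 13.2 CPM (1.10 ± 0.11, adjusted p = 3.14e-06), and so had the order of Nrp1. In the Cd44 split 8 of the 24 (33.3%) were higher in cells with Cd44 and 1 was lower. Of all genes tested there, 12.2% were called higher and 5.86% lower, and the list was not tested as a set. Rnd1, a GTPase that binds plexins, was higher in cells with Cd44 in 3 of 3 mice (1.40 ± 0.20, adjusted p = 5.30e-04). The gene called lower was Gipc1 (-0.46 ± 0.14, adjusted p = 0.0475).

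Of 7 proteases known to cut semaphorins, 1 was higher and 3 were lower in preadipocytes than in progenitors, against 27.2% and 29.2% of all genes. In regulatory cells 1 was higher and 5 were lower than in progenitors (18.9% and 24.0% of all genes). Against preadipocytes 1 was higher and 3 were lower there (12.3% and 13.4%). In the Cd44 split 4 were higher and 0 lower (12.2% and 5.86%). The list is short and was not tested as a set, so these counts are not read as a result about it. Pcsk6, a proprotein convertase of the furin family, was at 336, 309 and 348 CPM in progenitors, 21.6, 23.9 and 34.8 CPM in preadipocytes and 15.4, 12.7 and 14.5 CPM in regulatory cells. Against progenitors its log2 fold changes were -3.71 ± 0.11 in preadipocytes (adjusted p = 7.48e-11) and -4.58 ± 0.15 in regulatory cells (adjusted p = 6.17e-10). Furin itself did not pass between preadipocytes and progenitors.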

How the data were processed

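Single-cell RNA was captured by 10x 3′ chemistry from sorted CD31- CD45- cells of 3 mice, and the authors deposited 1 matrix of raw UMI counts per gene and cell for each. The submitters' processing notes name Cell Ranger 2.1.1 and the mm10 build, while the file header names Cell Ranger 4.0.0. The mice gave 13698, 6872 and 16220 barcodes, of which 12984, 6414 and 15179 had more than 500 genes and under 5% mitochondrial UMIs. Medians were 7392.5, 12192.5 and 6667 UMIs per kept cell. Cells passing more than 1 gate (264) were left out, 7853 passed none, and no doublet caller was run.

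Raw counts were summed per mouse and class and tested with edgeR 4.0.16 in R 4.3.3 (TMM, low-count filter, quasi-likelihood test, mouse as a block) across all genes, with Benjamini-Hochberg adjustment at 0.05. The 6 gate genes, and Cd44 in its split, were left out of the adjustment. The pairing comes from the animal, since the classes of a mouse share a library. Deviations of sums from the same mouse correlated at 0.153 to 0.676 over 13264 genes (9 pairs), against -0.534 to 0.140 for different mice (18 pairs). Deviations were taken from the class mean of the same mice, so the ranges are not independent and their contrast is partly built in. The study's own test between clusters took cells as units and was not used. Levels are CPM of the class, and no length scaling was applied, so levels are not compared between genes. The fits were tested on simulated data. In the class comparison, 91 of 99 genes changed by 1 on the log2 scale and 100 of 100 changed by 2 were recovered among 12866, with 7 false calls. The simulated spread was a fixed low value, the changed genes were drawn from well counted ones, and far fewer genes changed than were called in the data. The recovery therefore does not carry over to members with few UMIs or to the number of false calls in the real comparisons.

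Members reaching a mean of 5 CPM in a class were described by mouse. Of the pathway genes, the text names called ones whose log2 fold change reached 1 in size and whose level reached 20 CPM in a class, with at most 3 per list, comparison and direction. The members, gates and lists were chosen with earlier results of these data known. Alternatives covered DESeq2 1.42.0, normalization, filters, the block, each mouse, gates, depth, other cell types (by a marker list that is not reported here in full) and the deepest 5% of cells. Coordinates are from GENCODE and promoters from RefSeq (GRCm38.p6), where 26 of 31 members had an entry. Counts were summed in python 3.11.15 with scipy 1.17.1, and plots were drawn with matplotlib 3.10.9.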

Additional observations from a re-analysis of the deposited data

How the results depend on the processing

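Over the alternatives, members called in a comparison kept direction and call in 616 of 654 cases, lost the call in 37 and turned in 1. Of the members not called, those described by mouse were followed in the class comparisons. In the Cd44 split, only those at an unadjusted p under 0.05 were followed. These turned in 15 of 236 cases and gained a call in 14. The rest were not followed, although they can gain calls too. Regulatory cells over progenitors had 8 members called higher in place of 7 with a mitochondrial limit of 10% and with cells in 2 gates kept. For the thinned fits, cells were gated again on their thinned counts, unlike for the shares of cells above. This gave 18601 progenitors, 3366 preadipocytes and 616 regulatory cells, so depth and the choice of cells changed together. With cells thinned to 3000 UMIs, 7 members were called higher in preadipocytes over progenitors (11 without thinning) and 4 in regulatory cells over progenitors (7 without thinning). Over all genes the calls higher also fell, from 3601 to 2672 and from 2511 to 1583. With no low-count filter, 9 in place of 4 members were called lower in regulatory cells than in preadipocytes. Over all genes, the calls lower there rose from 1771 to 2245. In the Cd44 split, where 2 were called higher, DESeq2 called 1, the fit without the replicate block 0, and thinned cells 0. Over all genes, 1376 were called higher with the main settings, against 616, 0 and 124 in these fits. In the same split, 3 members were called with no low-count filter, without mouse 1 and without cells bearing other types' markers. Over all genes, those fits called 1393, 1434 and 1361 higher. The cause of these shifts was not tested.

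Among the called and the followed members, directions turned as follows on the log2 scale. For preadipocytes over progenitors, Nrp2 was at -0.0089 to 0.55 when 1 mouse was left out, -0.022 after thinning and -0.033 without cells bearing other types' markers, and Sema3a was at 0.15 after thinning. For regulatory cells over progenitors, Nrp2 was at 0.33 after thinning. Plxna2 there was at 0.00046 with DESeq2 size factors, 0.033 with the DESeq2 test, 0.016 without the replicate block, -0.35 to 0.27 when 1 mouse was left out (0.054 without mouse 1), 0.038 with a mitochondrial limit of 10% and 0.21 with cells in 2 gates kept. For regulatory cells over preadipocytes, Nrp2 was at 0.35 and Sema3e at -1.19 after thinning, and Sema4b was at -0.56 to 0.046 when 1 mouse was left out. In the Cd44 split, Sema4c was at -0.52 after thinning.

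Without the replicate block the members losing a call were Plxnb2 and Sema6a (preadipocytes over progenitors) and Sema3c and Sema4c (Cd44 split), and no other member's call changed. Calls over all genes fell from 3601 higher and 3870 lower to 1895 and 2100 in preadipocytes over progenitors, and from 1376 and 661 to 0 and 0 in the Cd44 split. Regulatory sums held 1424350 to 3697369 UMIs against 38363939 to 61731570 in progenitors.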

Other observations

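The summed counts of cells that passed no gate held RNA of both ligands and receptors of the system. Sums do not show whether the same cells held both. Sema3c stood at 224.9, 149.2 and 324.9 CPM in the ungated cells of mice 1, 2 and 3, below the progenitors and above the preadipocytes of each mouse. Sema3e stood at 23.1, 14.1 and 27.7 CPM. Nrp1 stood at 149.0, 116.0 and 131.5 CPM and Plxnd1 at 24.7, 21.7 and 18.7 CPM, both below the preadipocytes and above the progenitors of each mouse. The ungated cells were not tested against the classes. Between 11.8% and 25.2% of them per mouse had under 3000 UMIs. The part of progenitors and preadipocytes that the gates missed was not tested.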
